A study of Mus musculus with 9 samples.

Results

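The genes described here are 10 secreted growth factors and cytokines measured in 4T1 cells. They were chosen by name, with earlier results of these data known: Csf1, Csf2, Csf3, Il34, Il6, Lif, Il11, Il1a, Il33 and Tslp. All 10 were found by symbol among the 55416 genes of the count tables. They fall into 3 kinds, since colony-stimulating factors (Csf1, Csf2, Csf3, with Il34 sharing the receptor of Csf1) and ligands of the IL-6 family (Il6, Lif, Il11) stood beside the IL-1 family members Il1a and Il33 and the epithelial cytokine Tslp. The cells are a mammary carcinoma line from the BALB/c mouse, profiled by RNA sequencing in 9 libraries, 3 per group. The PBS group was grown in DMEM medium and is labelled untreated. The MRC group received MRC nanoparticles for 12 h, and the MRC+L group received the same particles for 12 h together with 3 min of 660 nm laser light. The labels give the light dose as 180 per square centimetre, in mW in one field and in mV in another, and they do not spell out MRC. Cells given light without particles were not analysed here, so light and particles are separated only by the comparison of MRC+L with MRC. All groups are the same cell line, and no label states that the 3 libraries of a group were separate cultures. The p-values therefore measure only the spread between these libraries, which may be technical.

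Cytokines of the IL-6 family bind a receptor specific to each ligand and then signal through the shared chain gp130, which activates JAK kinases and the transcription factor STAT3. Colony-stimulating factors act on myeloid cells: CSF1 and IL-34 bind CSF1R on macrophages, CSF2 (GM-CSF) acts through a receptor with a shared beta chain, and CSF3 (G-CSF) drives the production and release of neutrophils. 4T1 tumours are known for secreting G-CSF and for the neutrophil expansion they cause in mice. IL-1 alpha and IL-33 are held in the cell and act as alarm signals when cells are damaged, while TSLP is an epithelial cytokine that acts on dendritic cells and lymphocytes. Transcripts of many cytokines are short-lived because their 3′ untranslated regions carry AU-rich elements, which proteins such as tristetraprolin bind to promote decay.

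Library totals ran from 15019765 to 20044166 counts, and a count of 0 left room for 3 counts, or 0.150 to 0.200 CPM (counts scaled to library size), a limit that covers counting error only. PBS replicate 2 stood apart from the other libraries: the level of the shortest decile of genes relative to the longest, centred over libraries, was 1.25 on the log2 scale there and −0.32 to 0.14 in the other 8. Within the PBS group this library had the highest level of 6 of the 10 cytokine genes, with exons of 800 to 2428 bases in all, and the lowest level of 3, with exons of 2886 to 5281 bases. Il1a, with 1974 bases, was highest in PBS replicate 3. The biological coefficient of variation was 0.280 in PBS, 0.0817 in MRC and 0.0585 in MRC+L. The epithelial keratins Krt7, Krt8 and Krt18 were well detected, but Epcam had at most 5 counts in any library. The other listed epithelial markers were low: Cdh1 had 1.95 to 5.17 CPM, Krt19 0.253 to 2.75 and Krt14 0.104 to 1.96 over the 9 libraries. The summed level of the 7 epithelial markers, which rests mostly on Krt7, Krt8 and Krt18, was lower in both exposed groups (1056 to 1878 CPM in PBS, 634 to 667 in MRC, 560.4 to 572 in MRC+L). Of the 6 epithelial markers tested 2 fell (33.3%) and 1 rose (16.7%) in MRC, beside 19.8% and 17.8% of all tested genes, and 4 fell and 1 rose in MRC+L (66.7% and 16.7%, beside 24.5% and 21.8%). The 1 that rose in both was Krt14, with 2 to 7 counts in PBS and 22 to 36 in the exposed libraries. Krt14 entered the test only through the exposed libraries, so its call and the share of higher markers support nothing by themselves. Of 14 leukocyte markers, 5 had no count in any library (Cd3e, Ms4a1, Adgre1, Nkg7, Mpo), 11 stayed under 1 CPM everywhere, and the sums ranged from 28.8 to 47.8 CPM in PBS, 34.4 to 41.9 in MRC and 33.3 to 38.4 in MRC+L. Of the 3 tested, Cd68 rose in both comparisons (2.06-fold and 1.99-fold, edgeR adjusted p = 0.00195 and 0.00203) and S100a8 fell in MRC+L (edgeR adjusted p = 0.0151, lost without MRC+L replicate 1). S100a8 had 3 to 9 counts in the MRC+L libraries and entered the test mainly through the PBS and MRC libraries, the higher ones. Its call is therefore no independent support for the difference. Of 11 fibroblast and endothelial markers 7 stayed under 1 CPM, with sums of 46.6 to 83.7, 81.1 to 98.2 and 78.2 to 89.4 CPM. Of the 5 tested, Pdgfra rose and Pdgfrb fell in both comparisons, the rise in MRC+L being lost without MRC+L replicate 1 or MRC+L replicate 2, and Pecam1 had 2 to 4 counts in PBS and 6 to 15 in the exposed libraries. The part of these markers in the results was not tested. The RNA came from cells in bulk, so fewer cells expressing a gene and less of its RNA per cell cannot be told apart.

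Both exposed groups were compared with the same PBS libraries, which asks how the cells differ with the particles and with the particles plus light. Calls were made by the quasi-likelihood test of edgeR on all 9 libraries, at a p under 0.05 after Benjamini-Hochberg adjustment over 13439 genes. Of the cytokine genes 9 entered the test and Csf2 was too low. In MRC cells 3 of the 9 rose (Il6, Il11, Il1a), 4 fell (Csf3, Lif, Il34, Tslp) and 2 were not called (Csf1, Il33). Over all tested genes 17.8% were higher and 19.8% lower, 37.6% in either direction, against 77.8% of these 9. Because the cytokine genes and the lists below were chosen with earlier results known, their shares beside the background are descriptions and no test. Il1a and Il33 entered the test through the libraries where they were higher, so their calls and their part in these shares support nothing by themselves. In MRC+L cells 2 rose (Il6, Il11) and 5 fell (Csf3, Il33, Il34, Lif, Tslp), and Csf1 and Il1a were not called. The background was 21.8% higher and 24.5% lower, 46.2% in either direction, again against 77.8%. The median log2 fold change of the 9 genes was −0.59 in MRC and −0.69 in MRC+L, beside −0.03 over all tested genes in both comparisons. The 3 libraries of PBS did not overlap those of MRC for 7 of the 9 genes and those of MRC+L for 8, where 48.3% and 56.3% of all tested genes did not overlap. Between MRC+L and MRC none of the 9 was called, and 0% of all genes were. With PBS replicate 2 left out all 9 were called in MRC, 3 higher and 6 lower, and 8 in MRC+L, 2 higher and 6 lower. Of all genes 24.7% were then higher and 26.0% lower in MRC (50.6% in either direction), and 27.4% and 28.3% in MRC+L (55.7%).

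**Figure D1:**
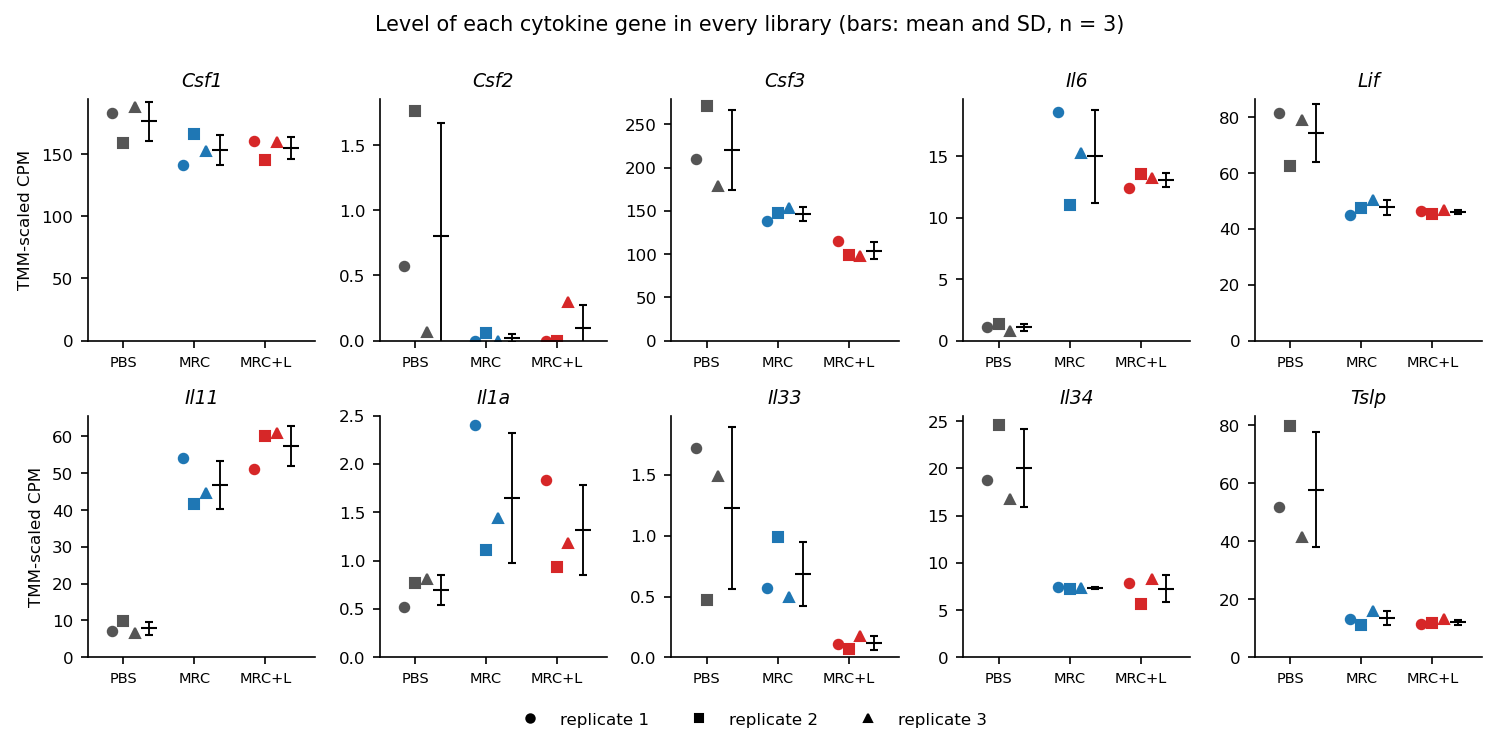
Level of each of the 10 cytokine genes in TMM-scaled CPM on linear axes from 0, with 1 point per library, symbols for the replicate number, and the mean ± SD of the 3 libraries beside each group. Il6 and Il11 sit near 1 and 8 CPM in PBS and above 11 and 41 CPM in every exposed library, whereas Csf3, Tslp, Il34 and Lif are highest in the 3 PBS libraries.

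Il6, which encodes the pleiotropic cytokine that drives the acute phase response and STAT3 signalling, had the largest rise. Its levels were 1.10, 1.35 and 0.809 CPM in the PBS libraries, 18.6, 11.1 and 15.3 CPM in MRC, and 12.4, 13.5 and 13.3 CPM in MRC+L. Every exposed library stood far above every PBS library, and the MRC+L values lay inside the range of the MRC values. The log2 fold change was 3.77 ± 0.25 (SE) in MRC, a 13.7-fold rise (edgeR adjusted p = 5.26e-06), and 3.57 ± 0.25 in MRC+L, an 11.9-fold rise (edgeR adjusted p = 4.48e-06). The PBS level rests on 13 to 23 counts per library and the exposed levels on 190 to 308.

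Il11 encodes a gp130 ligand with roles in bone, platelet formation, fibrosis and epithelial tumours. It stood at 7.26, 9.88 and 6.47 CPM in PBS, at 54.1, 41.6 and 44.5 CPM in MRC, and at 51.3, 60.2 and 60.9 CPM in MRC+L. The exposed libraries did not overlap PBS, and 2 of the 3 MRC+L libraries were above every MRC library. The rise was 5.93-fold in MRC (log2 2.57 ± 0.18, SE; edgeR adjusted p = 6.62e-06) and 7.29-fold in MRC+L (log2 2.87 ± 0.18; edgeR adjusted p = 2.64e-06).

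Lif encodes leukemia inhibitory factor, the gp130 ligand that keeps mouse embryonic stem cells undifferentiated, and it went the opposite way. Its levels were 81.4, 62.4 and 79.0 CPM in PBS, 45.1, 47.6 and 50.4 CPM in MRC, and 46.3, 45.2 and 46.7 CPM in MRC+L. All exposed libraries were below all PBS libraries, and the MRC and MRC+L ranges overlapped. Lif fell 1.56-fold in MRC (log2 −0.64 ± 0.12, SE; edgeR adjusted p = 0.00200) and 1.61-fold in MRC+L (log2 −0.69 ± 0.12; edgeR adjusted p = 0.00106). The 3 measured gp130 ligands among these genes therefore did not move together, with 2 higher and 1 lower against the same controls.

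**Figure D2:**
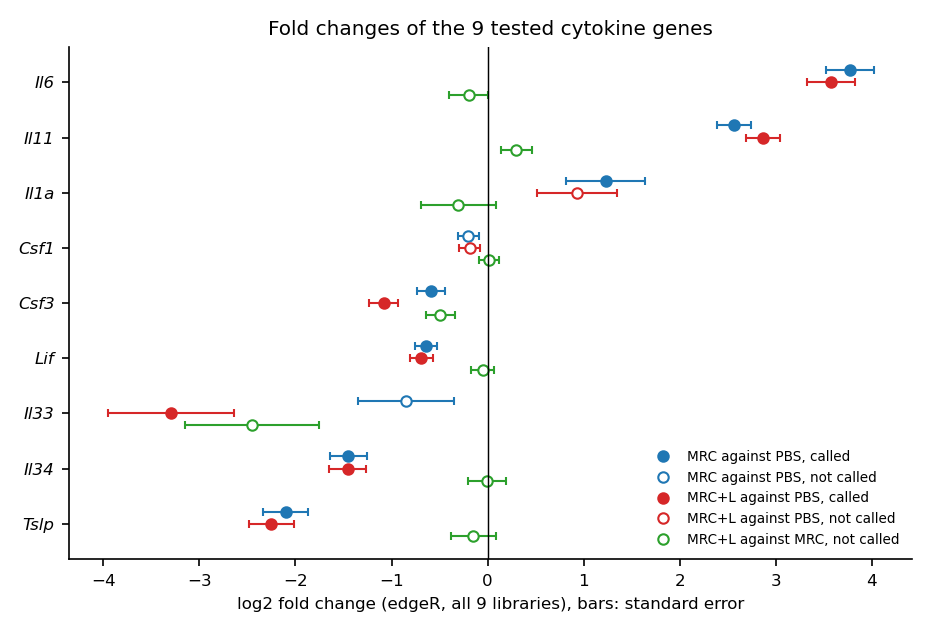
Log2 fold changes of the 9 tested cytokine genes in the 3 comparisons (horizontal axis, with bars for the standard error of the edgeR fit to all 9 libraries), with filled points for an adjusted p under 0.05. Il6 and Il11 lie above 2.5 against PBS in both exposed groups, Tslp lies below −2, and every point of MRC+L against MRC is open.

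The regions upstream of Il6, Il11 and Lif are shown because these 3 gp130 ligands moved in different directions. Each is the 250 bases before an annotated start site, 5′ to 3′ on the gene's strand, from RefSeq on GRCm38.p6, where windows were found for 7 of the 10 genes. Capitals mark matches on either strand to fixed motifs.
Il6, chr5:30012864-30013113, plus strand: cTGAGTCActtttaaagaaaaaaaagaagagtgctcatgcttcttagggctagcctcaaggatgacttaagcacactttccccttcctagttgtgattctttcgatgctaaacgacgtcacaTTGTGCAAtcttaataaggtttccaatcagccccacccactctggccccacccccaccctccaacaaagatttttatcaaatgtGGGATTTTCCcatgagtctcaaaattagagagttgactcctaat
Il11, chr7:4778142-4778391, minus strand: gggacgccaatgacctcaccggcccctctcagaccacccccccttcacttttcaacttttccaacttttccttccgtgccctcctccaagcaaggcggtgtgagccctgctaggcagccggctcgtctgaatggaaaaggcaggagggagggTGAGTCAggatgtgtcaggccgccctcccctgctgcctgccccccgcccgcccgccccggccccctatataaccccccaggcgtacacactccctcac
Lif, chr11:4257318-4257567, plus strand: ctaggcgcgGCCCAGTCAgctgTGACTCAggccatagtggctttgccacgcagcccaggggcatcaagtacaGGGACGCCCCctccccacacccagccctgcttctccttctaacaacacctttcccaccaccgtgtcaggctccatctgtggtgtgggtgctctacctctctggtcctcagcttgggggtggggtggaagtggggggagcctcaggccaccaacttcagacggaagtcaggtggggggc
In the Il6 window the capitals are an AP-1 match (letters TGANTCA) from base −249 to −243, a C/EBP match (TTNNGNAA) from −128 to −121 and an NF-kB match from −44 to −35, counted from the start site. The Il11 window held an AP-1 match from −98 to −92, and a further Il11 window at chr7:4782858-4783107 held none of the motifs searched. The Lif window held a match to the antioxidant response element (TGACNNNGC) from −241 to −233, an AP-1 match from −228 to −222 and an NF-kB match from −178 to −169. Among 32851 RefSeq windows of this length 7.25% held an NF-kB match, 6.75% an AP-1 match, 10.2% the antioxidant response element and 36.8% the C/EBP letters. Also searched were the cyclic AMP response element (TGACGTCA, 1.55% of windows), the interferon-stimulated response element (2.98%) and the TATA box (TATAAA, 12.4%). An AP-1 match lay upstream of both genes that rose and of the gene that fell. A match is a description of the sequence and not a measured binding site.

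The AU-rich content of the 3′ untranslated regions also differed among the 10 genes. The pentamer ATTTA was counted in the annotated region of each gene (GENCODE M21, GRCm38) and set beside 10866 tested genes with a region of at least 100 bases, whose median was 1 pentamer and 1.33 per kb. Csf2 had 9 pentamers (28.4 per kb, above 99.99% of these genes), Il6 had 6 (14.1 per kb, above 99.8%), Csf3 had 6 (8.97 per kb, above 98.9%) and Il11 had 10 (8.38 per kb, above 98.6%). The other 6 genes had 1.79 to 2.92 pentamers per kb, above 59.9% to 78.5% of the genes. The nonamer TTATTTATT, counted with overlaps, occurred 5 times in Il11, 4 times in Csf2 and 2 times in Lif, where 1.50% of genes held 2 or more. The most pentamer-dense stretches of 30 bases are shown for Csf2, Il6, Il11 and Lif, with the pentamers in capitals.
Csf2, chr11:54247329-54247358, minus strand: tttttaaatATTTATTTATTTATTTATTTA
Il6, chr5:30019677-30019706, plus strand: tttaattatttttaATTTAttgataATTTA
Il11, chr7:4773506-4773535, minus strand: ctttaaaaccagatcttATTTATTTATTTA
Lif, chr11:4272414-4272443, plus strand: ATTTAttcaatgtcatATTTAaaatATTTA
The 4 genes of highest density had different outcomes: Il6 and Il11 rose, Csf3 fell, and Csf2 had a lower summed count in each exposed group than in PBS.

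Csf3 was the most abundant of the 10 transcripts per kilobase of exon in every group. It stood at 210.4, 271 and 179 CPM in PBS, at 138, 147 and 154 CPM in MRC, and at 115, 98.6 and 98.3 CPM in MRC+L. The 3 groups formed 3 separate ranges, highest in PBS and lowest in MRC+L, and PBS replicate 2 was the highest library. Csf3 fell 1.50-fold in MRC (log2 −0.59 ± 0.15, SE; edgeR adjusted p = 0.0113) and 2.12-fold in MRC+L (log2 −1.08 ± 0.15; edgeR adjusted p = 0.000316). Without PBS replicate 2 the falls were 1.34-fold and 1.87-fold (log2 −0.42 and −0.91), and the MRC call was lost only with MRC replicate 1 left out (adjusted p = 0.0541).

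Csf1, the main growth factor of macrophages, was not called. Its levels were 183, 159 and 188 CPM in PBS, 142, 166 and 153 CPM in MRC, and 160.4, 145 and 159.6 CPM in MRC+L. The ranges overlapped, because PBS replicate 2 was below 1 library of MRC and below 2 of MRC+L. The log2 fold changes were −0.20 ± 0.11 (SE) and −0.19 ± 0.11, with edgeR adjusted p of 0.172 and 0.183. Leaving out PBS replicate 2 brought Csf1 past the threshold in both comparisons, with log2 fold changes of −0.28 and −0.26 (adjusted p = 0.0110 and 0.0159), and no other alternative did.

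Il34 encodes the other ligand of the CSF1 receptor and fell in both exposed groups. Its levels were 18.8, 24.6 and 16.7 CPM in PBS, 7.47, 7.22 and 7.29 CPM in MRC, and 7.89, 5.62 and 8.34 CPM in MRC+L. No exposed library reached the lowest PBS library, and the MRC range lay inside that of MRC+L. The fall was 2.73-fold in MRC (log2 −1.45 ± 0.19, SE; edgeR adjusted p = 0.000287) and 2.74-fold in MRC+L (log2 −1.46 ± 0.19; edgeR adjusted p = 0.000215). Il34 spans 2 short genes on the opposite strand, Gm15894 and Gm15895, which had at most 5 counts in a library, and the counting used no strand.

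Csf2 encodes GM-CSF, a growth factor for granulocytes and macrophages, and lay near the floor. It had 11, 30 and 1 counts in the PBS libraries, 0, 1 and 0 in MRC, and 0, 0 and 5 in MRC+L. PBS replicate 2 supplied 30 of the 42 PBS counts, and PBS replicate 3 was as low as the exposed libraries. Relative to library totals the summed PBS counts were 42.6 times those of MRC (exact 95% interval 7.24 to 1722, counting error only) and 8.11 times those of MRC+L (3.21 to 26.3). Without PBS replicate 2 the ratios were 18.3 (2.71 to 783) and 3.49 (1.14 to 12.6). Gm12223, which overlaps the span of Csf2 on the opposite strand, had at most 2 counts. Csf2 did not pass the filter on low counts. In the 6 alternative fits that it entered, the adjusted p ran from 9.44e-05 to 0.0971 for MRC against PBS and from 0.00555 to 0.181 for MRC+L against PBS. Apart from the fit with no filter, Csf2 entered these only through PBS replicates 1 and 2, where it was high. The p-values therefore support nothing by themselves.

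Il1a, the gene of IL-1 alpha, was low and rose in MRC. It had 0.522, 0.765 and 0.809 CPM in PBS, 2.41, 1.11 and 1.44 CPM in MRC, and 1.84, 0.937 and 1.18 CPM in MRC+L, from 10 to 38 counts per library. Both exposed groups stood above PBS without overlap, with replicate 1 the highest in each of them. The rise was 2.35-fold in MRC (log2 1.23 ± 0.41, SE; edgeR adjusted p = 0.0390), while the value in MRC+L was 1.91-fold and not called (log2 0.93 ± 0.42; edgeR adjusted p = 0.0934). The PBS libraries of Il1a alone would not have passed the filter on low counts. It entered the test through the exposed libraries, the higher ones, so its call is no independent support for the difference. A gene on the opposite strand, Gm14023, overlaps the span of Il1a and had at most 5 counts in a library, which is not small beside the counts of Il1a. The MRC call held in 11 of 18 alternatives and was lost when PBS replicate 1, MRC replicate 1, MRC replicate 3 or MRC+L replicate 3 was left out, and also with limma-voom, the replicate block or the 6 libraries alone. The adjusted p over all alternatives ran from 0.0214 to 0.164. Without MRC replicate 1 the log2 fold change was 0.87 (adjusted p = 0.164).

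Il33, which encodes a nuclear alarm cytokine, was lower in MRC+L. It had 33, 8 and 24 counts in PBS, 9, 17 and 10 in MRC, and 2, 1 and 3 in MRC+L, which is 0.470 to 1.72, 0.496 to 0.990 and 0.0669 to 0.177 CPM. The MRC+L libraries lay below all others, whereas PBS and MRC overlapped because of PBS replicate 2. The fall in MRC+L was 9.84-fold in the fit (log2 −3.30 ± 0.66, SE; edgeR adjusted p = 0.00259), and the ratio of the summed counts, 65 to 6, was 10.5 with an exact 95% interval of 4.55 to 29.5 for counting error. The fitted value depends on the prior count and was 5.76-fold with a prior count of 2. Il33 entered the test through its PBS and MRC libraries, the higher ones, and was too low for the fit to the 6 libraries of MRC+L and PBS, so its call is no independent support for the difference. For MRC against PBS the log2 value was −0.85 ± 0.50 and not called (edgeR adjusted p = 0.210), and it passed the threshold only without PBS replicate 2 (log2 −1.24, adjusted p = 0.0321).

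Tslp, an epithelial cytokine, had the largest fall among the cytokine genes with more than 100 counts in every library. Its levels were 51.7, 79.9 and 41.6 CPM in PBS, 13.4, 11.1 and 15.8 CPM in MRC, and 11.5, 11.8 and 13.1 CPM in MRC+L. The exposed ranges overlapped each other and lay far below PBS, where replicate 2 was the highest. Tslp fell 4.29-fold in MRC (log2 −2.10 ± 0.23, SE; edgeR adjusted p = 0.000105) and 4.76-fold in MRC+L (log2 −2.25 ± 0.24; edgeR adjusted p = 5.34e-05). With the trend of counts on gene length removed from each library the falls were 3.80-fold and 4.10-fold, and without PBS replicate 2 they were 3.48-fold and 3.85-fold.

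Levels of different genes were compared per kilobase of exon. In PBS the order from high to low was Csf3 (155.8 ± 32.9 CPM per kb, SD, n = 3), Tslp (43.4 ± 14.9), Csf1 (33.4 ± 2.95), Lif (17.1 ± 2.38), Il34 (10.2 ± 2.10), Il11 (3.78 ± 0.857), and then Csf2, Il6, Il33 and Il1a at 1.00 to 0.354. The ranges of Tslp and Csf1 overlapped, as did those of the last 4 genes, each with the next. In MRC Il11 ranked in place 3 (22.5 ± 3.15 CPM per kb) behind Csf3 (103.6 ± 5.49) and Csf1 (29.1 ± 2.34), Lif and Tslp overlapped at 11.0 and 10.1, and Il6 (6.17 ± 1.56) was above Il34 (3.74 ± 0.0663). In MRC+L Csf3 (73.7 ± 6.86 CPM per kb) was followed by Csf1 (29.4 ± 1.62) and Il11 (27.6 ± 2.58), whose ranges overlapped, and by Lif, Tslp, Il6 and Il34 in that order without overlap. As ratios of per-kilobase levels within a library, Csf3 to Il6 was 351 ± 26.4 in PBS (SD, n = 3), 17.6 ± 5.08 in MRC and 13.7 ± 1.91 in MRC+L. Csf1 to Il34, the ratio of the ligands of CSF1R, was 3.39 ± 0.908, 7.78 ± 0.757 and 8.08 ± 1.32. The ranges of PBS and the exposed groups did not overlap in either ratio.

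The comparison of MRC+L with MRC asks what the light added to the particles. With all 9 libraries in the fit, none of the 9 cytokine genes was called (edgeR adjusted p of 0.988 or more), and 0 of 13439 genes were. At an unadjusted p under 0.05 there were 573 genes, with Csf3 and Il33 among them. DESeq2 called 23 genes and had 639 at an unadjusted p under 0.05, limma-voom called 0 and had 572, and neither called a cytokine gene. Csf3 and Il33 were also the 2 of 9 genes (22.2%) whose 3 MRC+L libraries did not overlap the MRC libraries, where 24.4% of all tested genes did not overlap. The log2 fold changes were −0.49 ± 0.15 (SE) for Csf3, −2.45 ± 0.70 for Il33 (5.46-fold, and 3.40-fold with a prior count of 2), 0.30 ± 0.16 for Il11 and −0.20 ± 0.20 for Il6, and −0.30 to 0.01 for the other 5. The median of the 9 was −0.15, beside −0.01 over all tested genes.

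The outcome for Csf3 depended on the PBS libraries, which this comparison does not use but which share in the estimate of the spread. Fitted to the 6 libraries of MRC and MRC+L alone, Csf3 fell 1.40-fold with light (log2 −0.49 ± 0.07, SE; edgeR adjusted p = 0.000350), and 1.91% of 12955 genes were lower in that fit and 5.05% changed in either direction. Without PBS replicate 2 the same fold was called at an adjusted p of 0.00721, beside 0.335% of 13747 genes lower and 0.647% in either direction. The adjusted p over all 18 alternatives ran from 0.000350 to 1.00 and the log2 fold change from −0.57 to −0.45. Il11 reached an adjusted p of 0.0588 in the 6-library fit and Il33 one of 0.0734 without PBS replicate 2. Il33 was too low for the filter in the 6-library fit.

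**Figure D3:**
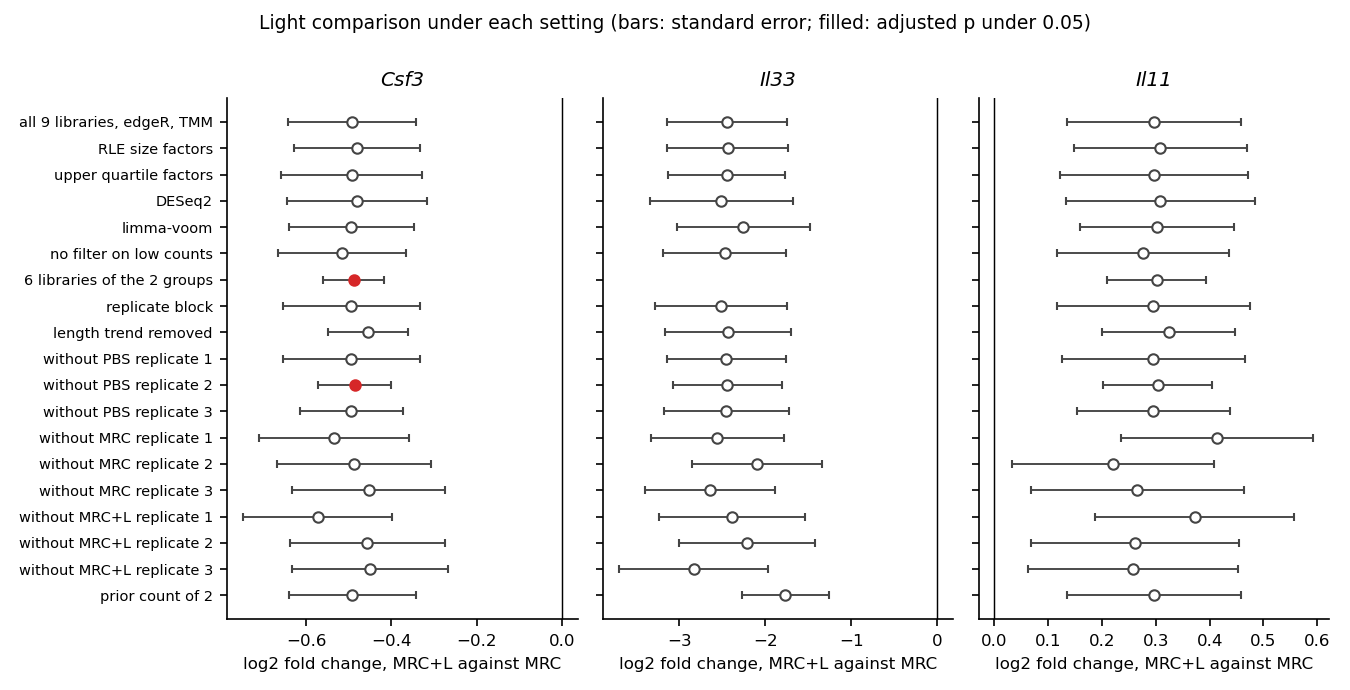
Log2 fold change of Csf3, Il33 and Il11 for MRC+L against MRC (horizontal axis, bars for the standard error) under the fit to all 9 libraries and each alternative (rows), with filled points for an adjusted p under 0.05. The Csf3 estimate stays between −0.57 and −0.45 in every row and is filled only for the 6 libraries alone and without PBS replicate 2.

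For the 3 cytokine genes with the smallest p over the 3 groups together, Il11, Il6 and Tslp, the genes whose log2 CPM followed them most closely over the 9 libraries were found by Pearson correlation, as a description over libraries that share their groups. Il11 was followed by Bet1 (r = 0.999), Atf3 (r = 0.998), which encodes a stress-induced transcription factor, and Procr (r = 0.998), the endothelial protein C receptor. Il6 was followed by Bysl (r = 0.998), a ribosome assembly factor, Phospho2 (r = 0.998) and Cdr2 (r = 0.997). Tslp was followed by Sri (r = 0.997), the calcium-binding protein sorcin, and by the interferon-inducible genes Ifi204 (r = 0.996) and Ifi202b (r = 0.995).

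Of 19 genes for receptors, shared chains and decoys of these ligands and of related ones, such as oncostatin M, 11 were tested. In MRC 5 were called higher and 4 lower (45.5% and 36.4%, beside 17.8% and 19.8% of all tested genes), and the median log2 fold change was 0.18. In MRC+L 5 were higher and 3 lower (45.5% and 27.3%, beside 21.8% and 24.5%), and the median was 0.39. The medians of all tested genes were −0.03. Of the 5 higher genes Il1rn, Csf2rb and Csf2rb2 had at most 4 counts in a PBS library and entered the test only through the exposed libraries, so their calls and the share of higher genes support nothing by themselves, and their counts are given without a test. Il6st, the gene of gp130, rose from 173 ± 74.5 CPM in PBS (SD, n = 3) to 331 ± 28.0 in MRC and 366 ± 17.1 in MRC+L (edgeR adjusted p = 0.0201 and 0.00850), and the MRC call was lost without MRC replicate 1 or MRC replicate 2 and in the fit to 6 libraries (highest adjusted p 0.0664). Osmr, the gp130 partner for oncostatin M, rose 2.76-fold in MRC, from 21.1 ± 3.15 to 58.2 ± 1.10 CPM (edgeR adjusted p = 2.25e-05), and 2.31-fold in MRC+L. Of the ligand-specific chains Il11ra1 fell from 12.8 ± 4.13 CPM to 4.65 ± 0.655 in MRC (2.76-fold, edgeR adjusted p = 0.00119) and 3.80 ± 0.676 in MRC+L (3.38-fold), and Il6ra fell 1.66-fold in MRC (edgeR adjusted p = 0.0129, and 0.0594 without MRC replicate 1) and was not called in MRC+L (adjusted p = 0.0791). Il11 and its own receptor gene thus changed in opposite directions. Lifr had 2 to 11 counts per library and was not tested.

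Among receptors of the IL-1 family, Il1r1 fell 2.55-fold in MRC, from 43.8 ± 11.4 to 17.1 ± 2.72 CPM (edgeR adjusted p = 0.000603), and 2.38-fold in MRC+L, and its accessory chain Il1rap fell 1.70-fold and 1.77-fold. Il1rn, which encodes the receptor antagonist, had 0 to 2 counts per library in PBS, 8 to 12 in MRC and 6 to 9 in MRC+L. The IL-33 receptor gene Il1rl1 had at most 8 counts. Csf2rb, the shared beta chain of the GM-CSF receptor, had 2, 0 and 1 counts in PBS and 16 to 27 in MRC and 20 to 35 in MRC+L. Its relative Csf2rb2 had 0 to 4 counts in PBS, 9 to 15 in MRC and 12 to 22 in MRC+L. Csf2ra, the specific chain of that receptor, and Csf3r, the G-CSF receptor, had no count in any of the 9 libraries, and Csf1r had 0 to 2 counts in PBS and 4 to 16 in the exposed libraries. Crlf2, the specific chain of the TSLP receptor, was not called. The number of receptor genes called higher in MRC was 2 in the fit to the 6 libraries of that comparison, which Il1rn and Csf2rb2 were too low to enter, and 3 without MRC replicate 1 or MRC replicate 2, which both dropped Il6st and Csf2rb2.

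**Figure D4:**
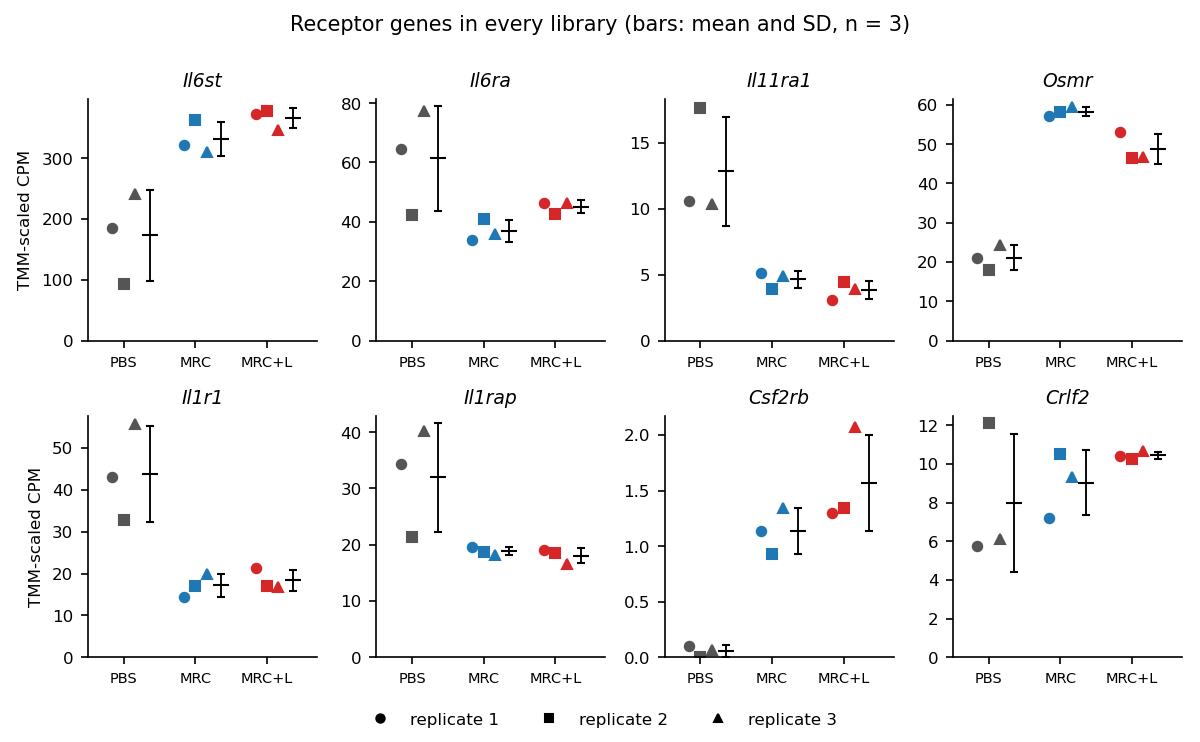
Level of 8 receptor genes in TMM-scaled CPM on linear axes from 0, with 1 point per library and the mean ± SD of the 3 libraries beside each group. Il6st, Osmr and Csf2rb are higher in the 6 exposed libraries, Il11ra1, Il1r1 and Il1rap are lower in them, Il6ra is lower in MRC without overlap, and Crlf2 overlaps between groups.

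Of 15 further ligands of the IL-6 and IL-1 families, 5 were tested, and 1 was called higher (Cntf) and 1 lower (Il18) in each comparison with PBS. That is 20% in each direction, near the shares of all tested genes (17.8% higher and 19.8% lower in MRC, 21.8% and 24.5% in MRC+L). Cntf, the gene of ciliary neurotrophic factor, had 2 to 4 counts per library in PBS, 8 to 15 in MRC and 14 to 15 in MRC+L. It entered the test only through the exposed libraries and was too low for the fit to the 6 libraries of MRC and PBS, so no p is given. Il18, an inflammasome-processed cytokine of the IL-1 family, fell 2.19-fold and 2.96-fold (edgeR adjusted p = 0.0114 and 0.00200). Clcf1 and Ctf1 were not called, although Clcf1 was called higher in MRC without PBS replicate 2, with DESeq2 and with the length trend removed, and in MRC+L with the length trend removed. Osm had no count in any library, and Il1b had none in PBS and 0 to 6 in the exposed libraries.

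Downstream of these receptors, 26 of 27 JAK, STAT, SOCS, PIAS and phosphatase genes were tested. In MRC 3 rose and 10 fell (11.5% and 38.5%, median −0.25), beside 17.8% and 19.8% of all tested genes. In MRC+L 4 rose and 14 fell (15.4% and 53.8%, median −0.54), beside 21.8% and 24.5%. Stat3 rose 1.48-fold in MRC and 1.34-fold in MRC+L (edgeR adjusted p = 0.0127 and 0.0372), and the MRC+L call was lost with any exposed library or PBS replicate 1 left out, under the replicate block and in the fit to 6 libraries (highest adjusted p 0.119). The interferon mediator Stat2 fell 2.37-fold in MRC, Jak2 fell 3.36-fold, from 199 ± 34.3 to 59.1 ± 2.02 CPM, and the phosphatase gene Ptpn6 fell 3.30-fold (edgeR adjusted p from 1.00e-05 to 3.82e-05). Socs3, the feedback inhibitor of gp130 signalling, was 31.1 ± 5.27 CPM in MRC and 33.5 ± 2.06 in PBS and was not called there, and it fell 1.50-fold in MRC+L (edgeR adjusted p = 0.00578). The number of these genes called higher in MRC was 5 without PBS replicate 2, with Ptpn2 and Socs4 added. In MRC+L it was 2, with Socs4 and Stat3 dropped, when the library left out was PBS replicate 1 or one of the MRC+L replicates 2 and 3.

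Of 20 listed STAT3 target genes 18 were tested, with 5 higher and 8 lower in MRC (27.8% and 44.4%, median −0.41) and 4 higher and 10 lower in MRC+L (22.2% and 55.6%, median −0.51). Of all tested genes 17.8% and 19.8% were higher and lower in MRC and 21.8% and 24.5% in MRC+L, so the share of higher genes in MRC+L was near that of all genes. Myc and the angiogenic factor Vegfa rose 2.18-fold and 1.89-fold in MRC, while the survival gene Bcl2l1 fell 1.89-fold and the cyclin gene Ccnd1 fell 3.65-fold (edgeR adjusted p from 4.68e-05 to 0.000106). Also called higher in MRC were Bcl3, Cebpd and Osmr, and also called lower were Pim1, Icam1, Birc5, Mcl1, Pim3 and Timp1. The MRC calls of Bcl3 and Timp1 held in 15 of 18 alternatives. The activity of STAT3 was not tested. The number called higher in MRC+L was 7 without PBS replicate 2, with Bcl3, Cebpb and Lcn2 added. Between MRC+L and MRC none was called in the fit to 9 libraries, and in the fit to the 6 libraries of these groups 7 were lower (Bcl2l1, Ccnd1, Cebpd, Junb, Socs3, Bcl3, Birc5) and Vegfa was higher, by 1.20-fold to 1.43-fold. Of all 12955 genes in that fit 1.91% were lower and 5.05% changed in either direction. Without PBS replicate 2 Bcl2l1 and Ccnd1 were lower with light, at edgeR adjusted p of 0.00224 and 0.0129, beside 0.335% of 13747 genes lower.

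All 26 transcription factors listed as regulators of cytokine genes were tested. Whether each activates or represses the cytokine genes in these cells was not tested. In MRC 10 rose and 4 fell (38.5% and 15.4%, median 0.23), beside 17.8% and 19.8% of all tested genes. In MRC+L 10 rose and 6 fell (38.5% and 23.1%, median 0.22), beside 21.8% and 24.5%, so the share of lower genes was near that of all genes. The AP-1 and ATF genes split: Atf3 rose 6.19-fold, Fosl2 3.50-fold and Jun 1.90-fold in MRC, while Fos fell 3.26-fold and the early response gene Egr1 fell 11.8-fold (edgeR adjusted p from 2.25e-06 to 0.000171). Ets2 rose 3.16-fold, and Cebpd, which encodes a C/EBP factor, rose 3.94-fold. The NF-kB genes also split. Rela rose 1.44-fold in MRC (edgeR adjusted p = 0.00381) and was called higher in MRC+L too. Nfkb2 was lower in MRC and in MRC+L (edgeR adjusted p = 0.0216 and 0.0169), the MRC call holding in 12 of 18 alternatives. In MRC+L Nfkb1 was lower and Rel higher (edgeR adjusted p = 0.0446 and 0.0438), held in 6 and 10 of 18 alternatives. Relb was not called. The number of listed factors called lower in MRC was 8 without PBS replicate 2, with Atf2, Ets1, Nfatc1 and Nfkb1 added, and 7 with the length trend removed.

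Of 17 genes that act on the decay or stability of cytokine transcripts, all were tested, with 2 higher and 5 lower in MRC (41.2% called, beside 37.6% of all tested genes, median 0.11) and 4 higher and 6 lower in MRC+L (58.8% called, beside 46.2%, median 0.22). The shares of higher genes were 11.8% in MRC and 23.5% in MRC+L, beside 17.8% and 21.8% of all tested genes. Those of lower genes were 29.4% and 35.3%, beside 19.8% and 24.5%. The share called in either direction in MRC was near that of all genes, as was the share of higher genes in MRC+L. Zfp36, the gene of tristetraprolin, fell 1.63-fold in MRC and 1.83-fold in MRC+L (edgeR adjusted p = 0.00141 and 0.000329), and Zc3h12a, which encodes the endonuclease regnase-1 that degrades Il6 transcripts, fell 1.67-fold and 1.70-fold. Zfp36l1, a relative of Zfp36, rose 1.28-fold and 1.37-fold, and Rc3h1, the gene of roquin-1, rose 1.66-fold in MRC and 2.20-fold in MRC+L. The count of higher genes moved with single libraries: in MRC it was 0 without PBS replicate 1, 1 without any single MRC library, where Rc3h1 was lost, and 4 without PBS replicate 3, where Rc3h2 and Zc3h12c were added. In MRC+L it was 7 with DESeq2 or without PBS replicate 2, and 2 without PBS replicate 1 or any single MRC+L library, where Rc3h2 and Tia1 were lost.

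Of 15 genes for the processing and release of IL-1 family ligands and for the shedding of receptors, all were tested, and 8 fell in both comparisons (53.3%, beside 19.8% and 24.5% of all tested genes, medians −0.42 and −0.46). The calpain genes Capn1, Capn2 and Capns1, whose protease cleaves the IL-1 alpha precursor, fell 1.34-fold to 1.89-fold, and the pore-forming gene Gsdmd fell 2.33-fold in MRC and 2.87-fold in MRC+L. Casp1, Adam10 and Adam17 were not called. Hax1 was the only gene of this list called higher, in MRC (edgeR adjusted p = 0.0438), and it lost that call in 11 of the alternatives, among them each exposed library left out. Without PBS replicate 2 Casp1 was called higher in both comparisons, and without PBS replicate 3 Cast was called higher in MRC+L. Without MRC replicate 1 the number that fell in MRC was 5, with Capns1 and S100a13 among those lost.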

How the data were processed

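Per the labels' protocols, RNA of 4T1 cells was extracted with Trizol and sequenced from Illumina TruSeq libraries. The authors deposited 1 table of raw counts per gene for each of the 9 libraries. Per the file headers, featureCounts 2.0.1 counted read pairs on the exons of each gene of Ensembl release 104 (GRCm39) with no strand setting. Reads of genes that overlap on opposite strands were therefore not told apart by strand. The overlaps named above are of gene spans, and overlap of exons was not examined. Which aligner was used is not given in the sources used here. Symbols came from GENCODE M21 by gene ID and covered 52083 of 55416 IDs (94.0%).

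The software was R 4.3.3 (edgeR 4.0.16 for the tests, limma 3.58.1 and DESeq2 1.42.0 for alternatives) and Python 3.11.15 (pandas 2.3.3 for tables, matplotlib 3.10.9 for figures). The filter of edgeR, with min.count 10 and min.total.count 15, left 13439 genes. The quasi-likelihood test used TMM factors, a mean for each group, all 9 libraries, a prior count of 0.125 and an adjusted p threshold of 0.05. CPM values are counts scaled by TMM library sizes, and levels per kb divide them by the exon length in the count tables. The steps were tested on simulated data. The alternatives were RLE and upper quartile factors, DESeq2, limma-voom, no filter, the 6 libraries of each comparison, a replicate block, removal of the length trend, a prior count of 2, and leaving out each library.

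The 10 genes and all pathway lists were chosen with earlier results of these data known. The named genes are the 10 cytokine genes, up to 4 called genes of each of the 7 pathway lists in each comparison with the smallest adjusted p, and the 3 genes nearest in pattern to each of 3 cytokine genes. Other list genes that the text names were chosen after their values were seen. Some genes of these lists enter the counts but are not reported here by name.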

Additional observations from a re-analysis of the deposited data

How the results depend on the processing

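Against PBS the calls of Il6, Il11, Lif, Il34 and Tslp held in all 18 alternatives in both comparisons, and that of Csf3 in MRC+L in all 18. The Il33 call in MRC+L held in the 17 alternatives that tested it. All of these but the fit with no filter took Il33 in through its higher libraries, so this agreement is no independent support. For MRC against PBS the number of cytokine genes called higher was 2 to 3 and lower 3 to 6 with 1 library left out, and for MRC+L against PBS 2 in each case and 5 to 6. Of 484 fold changes recomputed, 12 turned sign, all between MRC+L and MRC and none of them called. Between MRC+L and MRC the number called lower was 1 (Csf3) in the fit to the 6 libraries of these groups, and 0 to 1 with 1 library left out, 1 without PBS replicate 2. Csf1 turned to −0.00800 without the filter on low counts and ran from −0.0421 to 0.0759 with 1 library left out, Il1a ran from −0.62 to 0.0555, and Il34 from −0.11 to 0.15. Il34 was 0.00596 with RLE factors, 0.00668 with DESeq2, 0.00175 in the 6-library fit and 0.0246 with the length trend removed. The cause was not tested.

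Over all genes the calls between MRC+L and MRC numbered 0 in the fit to 9 libraries, 406 higher and 248 lower in the fit to 6, 43 and 46 without PBS replicate 2, 12 and 11 with DESeq2, and 7 and 8 without the filter. The correlation of deviations between libraries of the same replicate number was −0.185 to 0.0385, and between libraries of different numbers it was −0.126 to 0.204. Libraries of the same number were thus not more alike, but with 3 libraries per group this cannot exclude pairing. With the replicate block 2059 genes were higher and 2224 lower in MRC against PBS, 2630 and 2860 in MRC+L, against 2394, 2656, 2926 and 3286 without it. The call of Il1a in MRC was the only one of a cytokine gene lost under the block (adjusted p = 0.0665). Depth limits Csf2, Il33 and Il1a, whose values rest on at most 38 counts per library.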
